A study of Mus musculus with 29 samples.

Results

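p53, the transcription factor encoded by Trp53, and 7 genes that it is known to control or that control it were followed in the developing mouse cortex: Mdm2, Trp53inp1, Plk2, Ccng1, Bbc3, Bax and Sesn2. The 8 genes were taken by symbol from 48709 Ensembl gene identifiers, and all 8 passed the filter on low counts that left 20078 genes to test. Cortex of mouse embryos at E16.5 was treated with vehicle or with TSA (trichostatin A), an inhibitor of histone deacetylases, and divided by FACS into Tbr2+ and Tbr2- fractions. The labels name no route, dose, strain or allele, and the genotype field of the labels holds only the sort gate. RNA-seq covered 3 Tbr2+ vehicle, 2 Tbr2+ TSA, 3 Tbr2- vehicle and 2 Tbr2- TSA libraries, and H3K9ac ChIP-seq covered 3 Tbr2+ vehicle libraries and 4 in each of the other 3 groups.

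Tbr2, the product of Eomes, marks the basal (intermediate) progenitors of the cortex, which divide away from the ventricle and give rise to excitatory neurons, while the Tbr2- fraction holds the cells that remain. In an unstressed cell p53 is kept low by MDM2, an E3 ubiquitin ligase whose own gene p53 activates, so that the pair forms a negative feedback loop. After DNA damage or other stress p53 is stabilised, largely at the protein level, and activates genes that arrest the cell cycle, start apoptosis or adjust metabolism and repair. H3K9ac is a histone mark found around active transcription starts, and deacetylase inhibitors such as TSA slow its removal and are known to raise Cdkn1a, the gene of the cell cycle inhibitor p21.

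Eomes separated the labelled fractions, at 370 to 548 CPM (counts scaled to the library total) in the 5 Tbr2+ and 8.23 to 21.95 CPM in the 5 Tbr2- RNA libraries. RNA library totals ran from 18567100 to 26282700 counts. The design states that RNA came from sorted nuclei, and the extraction text that it came from unsorted tissue. The wording of the sources does not settle this, while the Eomes values above separate the RNA libraries by labelled fraction. No source says that replicates are separate animals, so every p-value measures the spread between these libraries, which may be technical. In bulk libraries, fewer cells of a type and less RNA per cell cannot be told apart. In vehicle, all 10 basal progenitor markers, 11 of 12 S phase genes and 11 of 12 G2/M genes were higher in the Tbr2+ libraries. All 10 interneuron markers and 7 of 10 pan-neuronal markers were lower, and 1 pan-neuronal marker was higher. Summed S phase genes stood at 1040 to 1369 CPM in Tbr2+ and at 474 to 517 CPM in Tbr2- vehicle libraries, the summed interneuron markers at 136 to 285 and 824 to 1042 CPM. Of the other lists, 2 of 10 radial glia and 3 of 10 stress genes were higher, 2 of 10 microglia, 1 of 12 vascular or meningeal and 0 of 7 tested erythroid genes were lower, and of 9 nuclear long noncoding RNAs 1 was higher and 6 were lower. By the same test, described below, 9.96% of all genes were higher and 11.5% lower. No marker of the progenitor, cycle and neuron lists was at 0 in any of the 4 groups, and their part in the differences between populations below was not tested. TSA libraries differed from vehicle libraries in the summed level of 79 ribosomal protein genes, 14139 to 18740 CPM against 6927 to 11583 CPM, and the summed interneuron markers in Tbr2- libraries stood at 1566 to 1765 CPM in TSA against 824 to 1042 CPM in vehicle. The part of either in any TSA effect was not tested.

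The 8 genes lie on chromosomes 4 (Trp53inp1, Sesn2), 7 (Bbc3, Bax), 10 (Mdm2), 11 (Trp53, Ccng1) and 13 (Plk2) of GRCm38.p6, the patched form of the mm10 assembly that the files use. Trp53 (ENSMUSG00000059552) spans chr11:69580348-69591873 on the plus strand. Mdm2 (ENSMUSG00000020184) spans chr10:117688875-117710758 on the minus strand. Trp53inp1 (ENSMUSG00000028211) spans chr4:11156441-11174379. Plk2 (ENSMUSG00000021701) spans chr13:110395044-110400844 on the plus strand. Ccng1 (ENSMUSG00000020326) spans chr11:40748552-40755309 on the minus strand. Bbc3 (ENSMUSG00000002083) spans chr7:16308398-16318334 on the plus strand. Bax (ENSMUSG00000003873) spans chr7:45461695-45466903 on the minus strand. Sesn2 (ENSMUSG00000028893) spans chr4:132492804-132510456 on the minus strand. RefSeq promoter sequences were found for 7 of the 8 genes, with 3 starts for Bbc3 and 1 for each of the others. The 250 bases before each start were searched on both strands for the p53 decamer, the unit that occurs as a pair in p53 response elements, and for TGACGTCA, the cAMP response element (CRE). The decamer searched was RRRCWWGYYY, with R for A or G, W for A or T and Y for C or T. An exact decamer was present in the promoters of Trp53, Mdm2, Ccng1 and Bax, which makes 4 of 9 windows, against 7.13% of 32851 promoter windows of the same length. The windows of Bbc3 starts 2 and 3 overlap, so the 9 windows are not all separate. A CRE was present in the promoter of Plk2 and in no other window of the 8 genes, against 1.55% of all windows. The CRE was searched after the Plk2 sequence had been read, so its presence is a description, and a match in either case shows no binding. The 5 promoters with a match are printed 5′ to 3′ in the direction of transcription, because they belong to genes whose RNA or H3K9ac is described below. Capitals mark the match.
Trp53, chr11:69580109-69580358, plus strand: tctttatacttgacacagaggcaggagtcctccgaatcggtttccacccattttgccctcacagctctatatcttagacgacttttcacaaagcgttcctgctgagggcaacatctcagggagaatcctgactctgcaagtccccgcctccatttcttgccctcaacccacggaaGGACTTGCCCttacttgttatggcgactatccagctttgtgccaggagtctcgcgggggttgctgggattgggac
Mdm2, chr10:117710759-117711008, minus strand: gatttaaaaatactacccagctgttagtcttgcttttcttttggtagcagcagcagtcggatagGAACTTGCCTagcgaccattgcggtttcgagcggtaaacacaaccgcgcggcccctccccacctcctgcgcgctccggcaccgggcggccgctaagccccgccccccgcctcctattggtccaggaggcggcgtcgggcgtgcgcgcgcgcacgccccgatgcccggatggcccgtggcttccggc
Ccng1, chr11:40755287-40755536, minus strand: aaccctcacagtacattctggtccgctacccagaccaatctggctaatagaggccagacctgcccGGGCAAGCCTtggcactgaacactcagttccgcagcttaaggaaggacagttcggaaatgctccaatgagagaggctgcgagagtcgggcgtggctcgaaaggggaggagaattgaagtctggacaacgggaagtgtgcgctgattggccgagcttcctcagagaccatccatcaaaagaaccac
Bax, chr7:45466899-45467148, minus strand: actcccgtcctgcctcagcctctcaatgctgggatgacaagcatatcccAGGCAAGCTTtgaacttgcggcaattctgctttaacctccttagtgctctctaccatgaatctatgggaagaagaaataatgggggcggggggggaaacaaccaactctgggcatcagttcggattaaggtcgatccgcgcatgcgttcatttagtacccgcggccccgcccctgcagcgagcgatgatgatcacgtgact
Plk2, chr13:110394794-110395043, plus strand: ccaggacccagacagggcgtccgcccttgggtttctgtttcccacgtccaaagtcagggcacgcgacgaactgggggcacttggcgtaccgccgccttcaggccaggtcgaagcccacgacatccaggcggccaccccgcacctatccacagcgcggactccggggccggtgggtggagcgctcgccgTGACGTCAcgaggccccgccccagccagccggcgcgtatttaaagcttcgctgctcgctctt
Counted from the RefSeq start, the decamer lay at -75 to -66 in Trp53, -186 to -177 in Mdm2, -185 to -176 in Ccng1 and -201 to -192 in Bax, and the CRE at -62 to -55 in Plk2. Base composition differed widely among the promoters: G and C made up 52.8% of the Trp53, 54.0% of the Bax and 55.2% of the Ccng1 window, near the median of 52.4% over all windows, but 65.6% for Mdm2 and 68.4% for Plk2.

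Between the populations in vehicle, the RNA levels of Trp53 and Mdm2 were both higher in the Tbr2+ libraries, Trp53inp1 RNA rose most, and Plk2 and Bbc3 RNA fell. This comparison asked which of the genes differ between basal progenitors and the rest of the cortex. Of the 8 genes 3 passed as higher and 2 as lower with edgeR's quasi-likelihood test at a Benjamini-Hochberg adjusted p of 0.05 over all genes tested. Over all 20078 genes 21.4% passed, 9.96% as higher and 11.5% as lower. The median log2 fold change of the 8 genes was 0.43, that of all genes -0.05.

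Trp53 RNA stood at 150.0, 148.1 and 176.9 CPM in the Tbr2+ vehicle libraries and at 94.5, 75.8 and 77.7 CPM in the Tbr2- vehicle libraries. The 2 sets of libraries did not overlap, and the log2 fold change was 0.94 ± 0.15 (SE; adjusted p = 0.000602, edgeR), or 1.92-fold. Wrap53, on the other strand, begins within 1 kb of the Trp53 start and is read away from it, and the library kit does not keep strand, so reads at their boundary cannot be assigned with certainty. After TSA the levels were 181.6 and 182.0 CPM in Tbr2+ and 128.7 and 105.5 CPM in Tbr2- libraries, again without overlap (log2 fold change 0.63 ± 0.18, adjusted p = 0.0423, edgeR). That second call ended without any 1 of the 4 TSA libraries (adjusted p = 0.0799 to 0.229) and with only the groups compared in the fit (0.0611). Here and below, leaving out a TSA RNA library leaves 1 in its group, which is then assumed to vary like the other groups. RNA groups of 2 or 3 libraries can also lie apart by chance. The share of all genes whose RNA groups did so was not computed.

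Mdm2 stood at 128.9, 106.6 and 109.1 CPM in Tbr2+ vehicle libraries against 77.5, 65.3 and 70.5 CPM in Tbr2- ones. All Tbr2+ values exceeded all Tbr2- values, and the log2 fold change was 0.69 ± 0.14 (adjusted p = 0.00383, edgeR). In TSA, values of 105.6 and 92.1 CPM faced 63.2 and 72.4 CPM, also without overlap, at a log2 fold change of 0.54 ± 0.17 that did not pass (adjusted p = 0.072, edgeR). It passed when replicate numbers were used as a block within treatment (adjusted p = 0.0499), a pairing described with the processing, and with DESeq2 (0.0186).

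Trp53inp1, which encodes a p53-induced nuclear protein that acts in apoptosis and autophagy, had the largest population difference of the 8 genes in vehicle. It stood at 176.3, 182.1 and 230.5 CPM in Tbr2+ vehicle libraries and at 45.3, 64.4 and 45.2 CPM in Tbr2- vehicle libraries. The lowest Tbr2+ library lay far above the highest Tbr2- one, a 3.80-fold difference (log2 1.93 ± 0.18, adjusted p = 1.67e-05, edgeR). TSA libraries read 233.1 and 202.7 CPM in Tbr2+ and 81.6 and 72.3 CPM in Tbr2-, which kept the order (log2 1.501 ± 0.214, adjusted p = 0.00135, edgeR).

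Plk2, a polo-like kinase that p53 induces and that neuronal activity is also known to induce, went the other way. Its levels were 72.5, 103.9 and 40.7 CPM in Tbr2+ and 232.8, 261.2 and 258.7 CPM in Tbr2- vehicle libraries. Every Tbr2+ library was below every Tbr2- library although the Tbr2+ values spread widely, and the fall was 3.47-fold (log2 -1.79 ± 0.25, adjusted p = 0.000275, edgeR). After TSA the values were 67.4 and 63.0 CPM in Tbr2+ and 229.9 and 226.1 CPM in Tbr2- libraries (-1.81 ± 0.31, adjusted p = 0.00354, edgeR). The Trp53, Mdm2, Trp53inp1 and Plk2 calls in vehicle, and the Trp53inp1 and Plk2 calls in TSA, held in each of 17 alternative fits.

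Of the 2 genes that act directly in apoptosis, Bbc3 was lower in Tbr2+ libraries and Bax was not separated between the populations. Bbc3 encodes PUMA, a BH3-only protein that frees the pore formers of mitochondrial apoptosis, and BAX is such a pore former. Bbc3 stood at 13.6, 13.5 and 9.11 CPM in Tbr2+ and at 19.2, 19.2 and 24.5 CPM in Tbr2- vehicle libraries. The groups did not overlap, and the log2 fold change of -0.79 ± 0.23 passed (adjusted p = 0.0269, edgeR), but not without Tbr2+ vehicle library 3 (0.0989) or Tbr2- vehicle library 3 (0.111). In TSA, Bbc3 at 13.3 and 14.8 CPM against 28.1 and 23.4 CPM gave -0.87 ± 0.28, which did not pass (adjusted p = 0.0761, edgeR).

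Bax stood at 113.9, 131.5 and 136.3 CPM in Tbr2+ and 107.7, 103.2 and 126.5 CPM in Tbr2- vehicle libraries, overlapping groups whose log2 difference was 0.18 ± 0.26 (adjusted p = 0.693, edgeR). Its 2 Tbr2+ TSA libraries disagreed, at 59.9 CPM in library 1 and 157.0 CPM in library 2, beside 183.2 and 153.3 CPM in the Tbr2- TSA libraries. The 59.9 CPM was the lowest Bax value of all 10 libraries. Bax in TSA did not differ by population in the full fit (-0.63 ± 0.32, adjusted p = 0.263, edgeR), while without Tbr2+ TSA library 2 the difference was -1.49 and passed (adjusted p = 0.00445), with library 1 alone in its group and its spread assumed to be that of the other groups, so the value rests on which of these 2 libraries is kept.

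Ccng1, which encodes cyclin G1, and Sesn2, which encodes the stress-induced mTORC1 inhibitor sestrin 2, did not pass in either population comparison. Ccng1 had 40.7, 28.6 and 31.9 CPM in Tbr2+ and 35.4, 45.5 and 43.5 CPM in Tbr2- vehicle libraries, so the groups overlapped (-0.30 ± 0.19, adjusted p = 0.318, edgeR). In TSA its values of 43.1 and 33.2 CPM, against 47.0 and 37.8 CPM, overlapped as well. Sesn2 stood at 18.3, 9.39 and 6.55 CPM in Tbr2+ and 2.15, 6.44 and 4.53 CPM in Tbr2- vehicle libraries. Its groups were barely separate, and the log2 fold change of 1.39 ± 0.47 narrowly missed the threshold (adjusted p = 0.0512, edgeR). DESeq2 (0.0165), the unfiltered fit (0.021), the filter at 1 CPM (0.04) and the fit of only the compared groups (0.0495) placed it past the threshold, as did leaving out Tbr2+ vehicle library 3 (0.0324), Tbr2- vehicle library 2 (0.0381) or Tbr2- TSA library 1 (0.0499). After TSA, Sesn2 stood at 10.6 and 7.65 CPM in Tbr2+ and 1.96 and 3.13 CPM in Tbr2- libraries (1.84 ± 0.58, adjusted p = 0.0696, edgeR). In the TSA comparison as a whole, 2 of the 8 genes passed as higher and 1 as lower, beside 9.32% of all genes, 4.19% as higher and 5.13% as lower. The 2 population comparisons share no library.

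**Figure D1:**
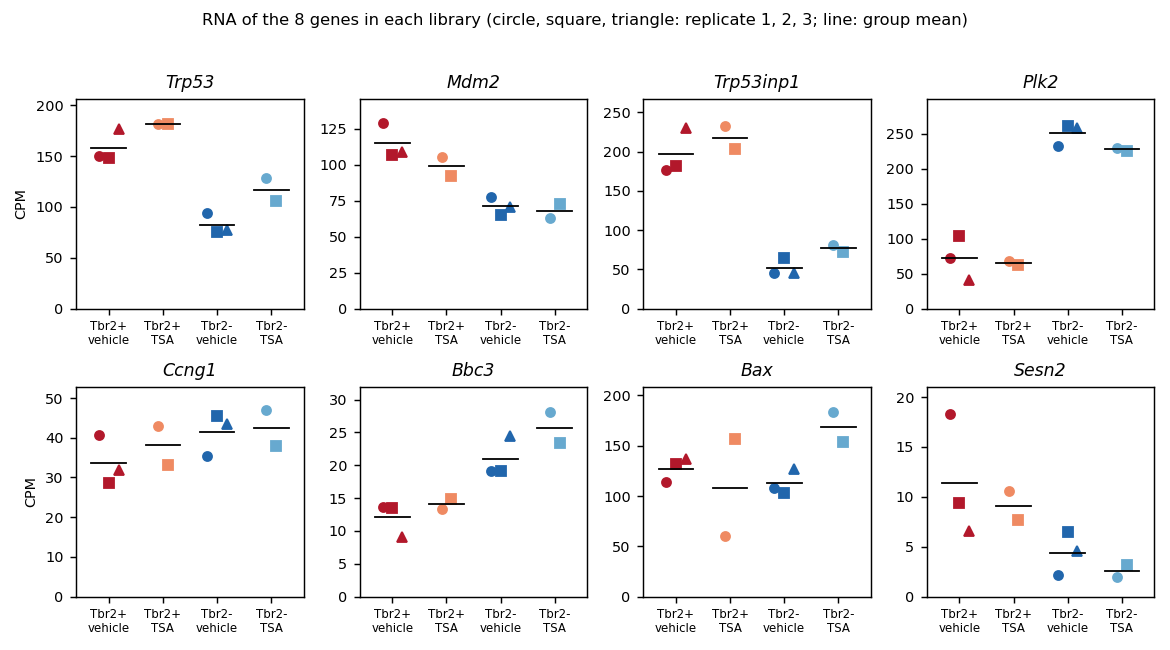
Each panel plots 1 gene's RNA level in CPM (y axis, from 0) in each RNA library, by group on the x axis, with the shape giving the replicate number and the line the group mean. Trp53, Mdm2 and Trp53inp1 sit higher and Plk2 and Bbc3 lower in the Tbr2+ vehicle libraries than in the Tbr2- ones, and Bax falls to 59.9 CPM in Tbr2+ TSA library 1.

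TSA moved none of the 8 genes past the threshold within either population. In Tbr2+ libraries no gene of all 20078 passed (0%, 0% as higher and 0% as lower; 3175 genes had an unadjusted p under 0.05, and DESeq2 called 1015). In Tbr2- libraries 1.18% of all genes passed, 0.817% as higher and 0.359% as lower. In Tbr2+ libraries Trp53 and Mdm2 had log2 fold changes of 0.20 ± 0.16 and -0.22 ± 0.16, and neither passed (adjusted p = 0.591 and 0.543, edgeR). Trp53 and Trp53inp1 had the smallest p-values of the 8 genes in Tbr2- libraries. Trp53 moved from 75.8 to 94.5 CPM in vehicle to 105.5 to 128.7 CPM in TSA (log2 fold change 0.50 ± 0.16, adjusted p = 0.108, edgeR). Trp53inp1 moved from 45.2 to 64.4 CPM to 72.3 to 81.6 CPM (0.58 ± 0.19, adjusted p = 0.116, edgeR). DESeq2 placed both past the threshold (adjusted p = 0.0309 and 0.0441), and edgeR without Tbr2- vehicle library 2 placed Trp53inp1 there (0.0441).

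Averaged over both populations, which share 1 estimate of the spread, 10.8% of all genes passed, 6.39% as higher and 4.46% as lower, and again 0 of the 8 genes. Same-numbered libraries seem to pair the populations within a treatment, as described with the processing, but this average counts them as separate. No fit of the average allowed for that pairing, so its p-values, here and below, may be too small. Trp53 at 0.35 ± 0.11 (adjusted p = 0.0671, edgeR) and Trp53inp1 at 0.36 ± 0.13 (0.102) came nearest, and passed without Tbr2+ vehicle library 3 (0.0459) and Tbr2- vehicle library 2 (0.0318), in that order; Trp53 also did with DESeq2 (0.0189). Plk2, with the second largest population difference, had an average TSA effect of -0.14 ± 0.19 (adjusted p = 0.68, edgeR), and Mdm2 one of -0.14 ± 0.11 (0.447). The difference between the 2 TSA effects, tested as an interaction, called 0 of the 8 genes and 0% of all genes (0% as higher, 0% as lower; 1103 genes had an unadjusted p under 0.05, and DESeq2 called 11). The largest interaction among the 8 genes was that of Bax, -0.81 ± 0.41 (adjusted p = 0.897, edgeR), which contains the discordant Tbr2+ TSA pair.

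Cdkn1a, a well known p53 target and a known responder to deacetylase inhibitors, passed in the average TSA comparison and in neither population alone (adjusted p = 0.183 in Tbr2+ and 0.0717 in Tbr2-, edgeR). It stood at 14.7, 15.4 and 13.4 CPM in Tbr2+ vehicle, 28.3 and 20.6 CPM in Tbr2+ TSA, 16.0, 23.8 and 14.4 CPM in Tbr2- vehicle and 37.6 and 31.6 CPM in Tbr2- TSA libraries. Within each population every TSA library exceeded every vehicle library, a separation whose share over all genes was not computed. The average effect of 0.85 ± 0.18 passed (adjusted p = 0.0141, edgeR), although not without Tbr2+ TSA library 1 (0.0659) or Tbr2- TSA library 1 (0.0792). Whether the TSA effect on Cdkn1a differs from that on any of the 8 genes was not tested.

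**Figure D2:**
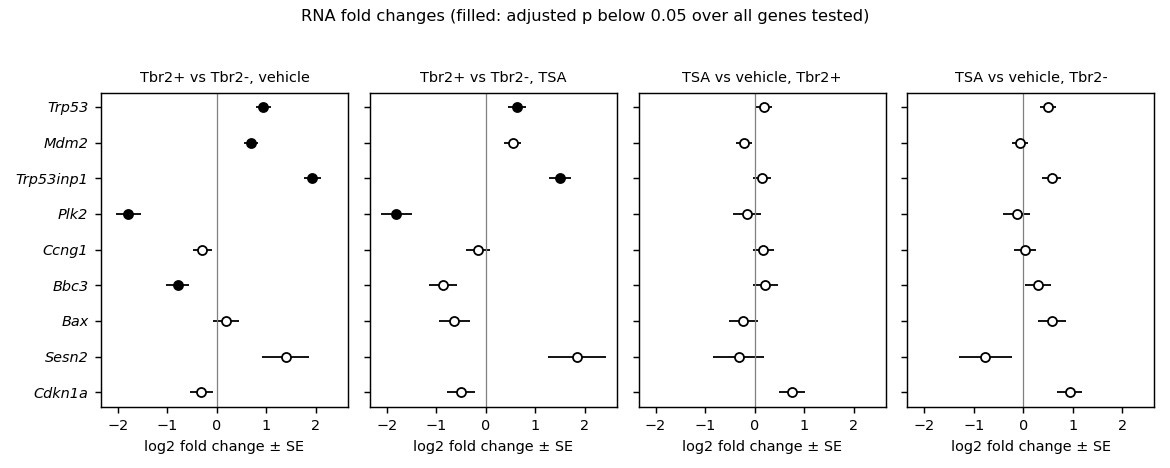
Points are log2 fold changes of the 8 genes and Cdkn1a (x axis, bars ± SE) in the 4 comparisons named above the panels, and filled points have an adjusted p below 0.05 over all genes tested. The 2 population panels hold 5 and 3 filled points and the 2 TSA panels hold none.

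Other genes of the pathway were taken from lists set up with the 8 genes, in groups by role. Over the 8 genes and 4 lists of p53 regulators and targets, 75 tested genes in all, 19 were higher and 8 lower in Tbr2+ vehicle libraries, with a median log2 fold change of 0.29 beside -0.05 for all genes. Of all genes tested 9.96% were called higher and 11.5% lower, shares that also belong beside each vehicle list count below. Among 19 regulators of p53, 4 were higher and 2 lower. Chek2, the checkpoint kinase that phosphorylates p53, stood at 31.9 ± 5.12 CPM (SD, n = 3) in Tbr2+ and 7.14 ± 1.67 CPM (n = 3) in Tbr2- vehicle libraries (2.16 ± 0.25, adjusted p = 8.4e-05, edgeR). Hdac1, a deacetylase that can act on p53, was 2.23-fold higher (adjusted p = 0.000203, edgeR), and Pias1, a SUMO ligase, 1.64-fold higher (0.00229).

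Among 10 cell cycle targets 3 were higher and none lower: Btg2 at 5.84-fold, Ccng2 at 1.71-fold and Gadd45a at 3.17-fold (adjusted p = 1.67e-05, 0.00188 and 0.00732, edgeR). Btg2, an antiproliferative gene, is also a known marker of neurogenic progenitors and stands on the basal progenitor list, so it is not specific to p53. Of 15 apoptosis targets 2 were higher, Ckap2 (2.77-fold, adjusted p = 0.000505, edgeR), which encodes a spindle protein, and Pidd1 (2.61-fold, 0.0263), and 1 was lower, Apaf1 (-0.53 ± 0.17, 0.0381). The Pidd1 call ended without any 1 of 4 libraries, Tbr2+ vehicle 1 or 3 or Tbr2- vehicle 2 or 3 (0.0555 to 0.0948), and the Apaf1 call without any 1 of the 6 vehicle libraries (0.0548 to 0.151), without Tbr2+ TSA library 1 or either Tbr2- TSA library (0.0524 to 0.0629), with no low-count filter (0.103) and with only the groups compared (0.0539).

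Among 23 targets in metabolism and repair 7 were higher and 3 lower. Sesn1, the sestrin 1 gene and relative of Sesn2, was at 141 ± 26.5 CPM (n = 3) in Tbr2+ and 42.8 ± 8.45 CPM (n = 3) in Tbr2- vehicle libraries (1.72 ± 0.19, adjusted p = 4.61e-05, edgeR). Ddit4, another inhibitor of mTORC1 signalling, was 3.29-fold higher (0.000145) and Abhd4 2.34-fold higher (0.00086). Of 14 core apoptosis genes, a further list that is not part of the 75, 3 were higher and 2 lower. Bcl2, which encodes an anti-apoptotic protein, was at 22.9 ± 4.49 CPM (n = 3) in Tbr2+ and 62.5 ± 11.4 CPM (n = 3) in Tbr2- libraries (-1.45 ± 0.20, adjusted p = 0.000236, edgeR), whereas the BH3-only genes Bcl2l11 (2.79-fold, 0.0014) and Bmf (4.67-fold, 0.00495) were higher. These 2 BH3-only genes rose where Bbc3 fell, but Bmf was near the detection floor, at 0.638 to 1.76 CPM in Tbr2- vehicle libraries. Other BH3-only genes went both ways in mean level between Tbr2+ and Tbr2- vehicle libraries. Hrk had 14.5 against 8.28 CPM, Bad 34.8 against 37.0 CPM and Bid 22.3 against 27.8 CPM.

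In TSA the same population comparison called 12 of the 75 genes higher and 4 lower, and of the 14 core genes 1 higher and 1 lower. Of all genes tested it called 4.19% higher and 5.13% lower. Chek2 (2.90-fold), Hdac1 (2.16-fold), Chek1 (2.37-fold), Btg2 (4.36-fold), Psrc1 (2.39-fold), Ckap2 (2.15-fold), Sesn1 (2.17-fold) and Bcl2l11 (2.70-fold) were among the higher ones, and Bcl2 (-1.20 ± 0.24), Trim32 (-0.76 ± 0.19) and Gls2 (-3.35 ± 0.86) among the lower ones, with adjusted p from 0.00083 to 0.029 (edgeR). Gls2, a mitochondrial glutaminase gene, was near the detection floor, at 0.197 ± 0.0212 CPM (n = 2) in Tbr2+ and 2.07 ± 0.563 CPM (n = 2) in Tbr2- TSA libraries. Each group holds 2 libraries, and of the 11 genes named here the calls of Hdac1 and Btg2 held without each library, while the other 9 ended without some TSA library (adjusted p up to 0.21): Chek2 and Ckap2 fell away without either Tbr2- library, Ckap2, Chek1, Psrc1 and Bcl2 without Tbr2+ library 1, Chek1, Psrc1, Bcl2l11 and Sesn1 without Tbr2- library 1, Psrc1, Bcl2 and Bcl2l11 without Tbr2- library 2, Bcl2l11 without Tbr2+ library 2, and Trim32 and Gls2 without any 1 of the 4. With only the compared groups in the fit, Chek1 (0.0606), Psrc1 (0.0584) and Gls2 (0.0818) also missed the threshold.

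TSA against vehicle, averaged over the populations, called 2 of the 75 genes higher, Cdkn1a and Rps27l, and 4 lower, and 2 of the 14 core genes higher, beside the 6.39% of all genes called higher and 4.46% called lower. The summed ribosomal protein genes, Rps27l among them, stood at 14139 to 18740 CPM in TSA and 6927 to 11583 CPM in vehicle libraries. The part of that class-wide difference in the Rps27l effect was not tested. Rps27l, a p53-induced ribosomal protein gene with the close relative Rps27, was at 72.8 ± 15.1 CPM (n = 3) and 130 ± 24.2 CPM (n = 2) in Tbr2+ vehicle and TSA libraries (average effect 0.95 ± 0.15, adjusted p = 0.00558, edgeR), and shared reads between the relatives make it less certain. It was also the 1 gene of these lists called in Tbr2- libraries alone (1.061 ± 0.205, adjusted p = 0.0481, edgeR), a call lost without Tbr2+ vehicle library 2, Tbr2- vehicle library 1 or 3 or either Tbr2- TSA library (0.0506 to 0.513) and with replicate number as a block (0.0658). Among regulators Chek2 (-0.85 ± 0.20), Atr (-0.52 ± 0.13) and Mdm4, the p53 inhibitor related to Mdm2 (-0.44 ± 0.11), fell on average (adjusted p = 0.02, 0.0241 and 0.0247, edgeR), as did Cpt1c (-0.70 ± 0.13, 0.00848). Core genes Cycs, encoding cytochrome c (0.78 ± 0.16, 0.0127), and Bad (0.63 ± 0.13, 0.0133) rose. As said above, the p-values of such averages count paired libraries as separate. Of these average effects Rps27l alone passed with every library left out in turn. The other 6 ended without Tbr2- TSA library 1 (0.0516 to 0.151), Chek2, Atr, Mdm4 and Bad also without Tbr2+ TSA library 1 (0.0654 to 0.0913), Atr and Mdm4 without Tbr2+ vehicle library 1 (0.0613 and 0.0615), Atr without Tbr2- vehicle library 3 (0.0579) and with replicate number as a block (0.0514), and Mdm4 without Tbr2- vehicle library 1 (0.0604) or Tbr2- TSA library 2 (0.0726).

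**Figure D3:**
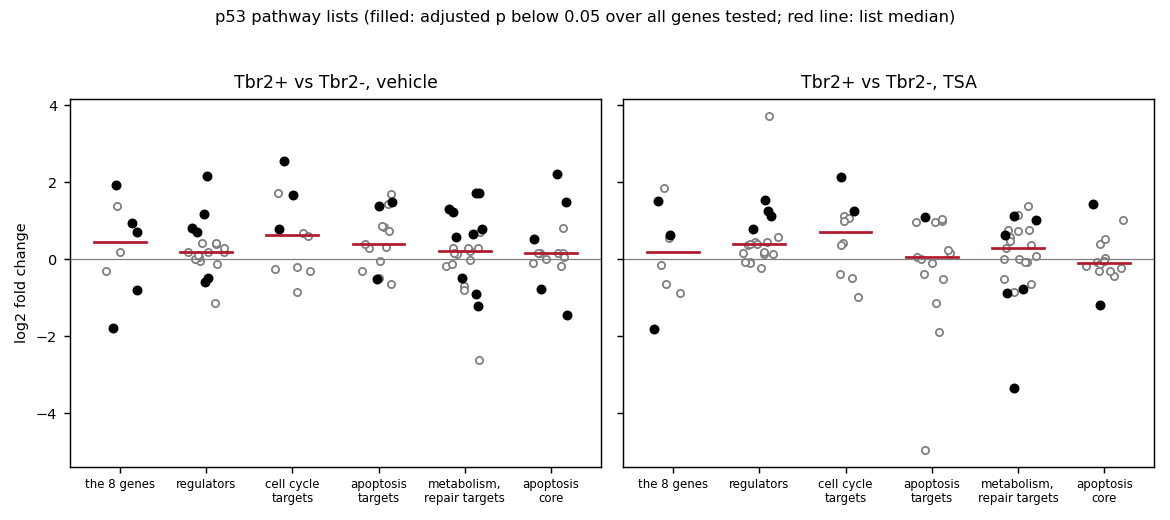
Each point is the log2 fold change (y axis) of a gene of the list on the x axis in Tbr2+ against Tbr2- libraries, in vehicle (left) and TSA (right), filled where the adjusted p was below 0.05, with red lines at the list medians. In vehicle the median of every list lies above 0 and both rising and falling genes are called in each list except the cell cycle targets, where 3 are higher and none lower. The open points farthest from 0 are genes with almost no counts in a group.

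Genes with the most similar pattern over the 10 RNA libraries were listed for each gene by Pearson correlation of log2 CPM, among genes with a mean of at least 5 CPM. Plk2 was closest to Stx1a, Dmtn and Fam110b (r = 0.99 each), and Bbc3 to Syn1, Cacng3 and Mgll (r = 0.98, 0.97 and 0.97), where Stx1a and Syn1 encode proteins of the synapse. Mdm2 was closest to Crat, Mcm6 and Cd1d1 (r = 0.99, 0.98 and 0.98), of which Mcm6 is a replication licensing gene, and Trp53inp1 to Rab8b, Rwdd3 and Cdk4 (r = 0.99, 0.99 and 0.98). Trp53 lay nearest to Rhog, Gstm5 and Tmem176b (r = 0.98, 0.97 and 0.97), Sesn2 to Exo1, Stxbp5l and Cnot7 (r = 0.94, 0.93 and 0.93), Bax to Rrp1, Abcf1 and Csnk2a1 (r = 0.95, 0.94 and 0.91) and Ccng1 to Tpd52, Gphn and Crip1 (r = 0.88, 0.87 and 0.87). The 10 libraries fall into 2 sorted populations. For these nearest genes correlations within the populations were not computed, and the values are given as a description. Among the 8 genes, Trp53 and Trp53inp1 had r = 0.94 over the 10 libraries and 0.12 once each group's mean was removed, and Trp53 and Mdm2 had 0.75 and -0.02.

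H3K9ac was called within 1 kb of a gene end in all 15 libraries at 7 of the 8 genes, all except Bbc3, which compares with 54.4% of 21887 protein-coding genes. Presence of a peak therefore did not separate the groups for Trp53, Mdm2, Trp53inp1, Plk2, Ccng1, Bax or Sesn2. Peaks were called by the authors in each library against 1 input per group, and Tbr2+ TSA libraries had far fewer of them, 31823 to 40053 against 47835 to 82164 in the other 11 libraries. Their input was the shallowest of the 4 inputs by the tag numbers in the file headers. The share of protein-coding genes with an end peak was 57.3 to 58.5% in Tbr2+ TSA and 61.5 to 65.4% elsewhere.

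The start of Mdm2 carried the strongest peaks of the 8 genes, with a highest −log10 q of 56.8 to 118 per library. Peaks at the start of Trp53 had a highest −log10 q of 24.2 to 58.3, and the start of Wrap53 lies in the same window, so they cannot be assigned to 1 of the 2 genes. At the 3′ end of Trp53 a peak was called in 2 of 3 Tbr2+ vehicle, 0 of 4 Tbr2+ TSA, 2 of 4 Tbr2- vehicle and 2 of 4 Tbr2- TSA libraries, and at that of Sesn2 in 3 of 3, 1 of 4, 1 of 4 and 1 of 4. No 3′ end peak was called at Mdm2, Plk2, Ccng1 or Bax in any library.

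Bbc3 had an end peak in 0 of 3 Tbr2+ vehicle, 1 of 4 Tbr2+ TSA, 4 of 4 Tbr2- vehicle and 4 of 4 Tbr2- TSA libraries. Fisher's exact test, two-sided, gave p = 0.0286 for the vehicle comparison, the smallest that 3 against 4 libraries allow, and an adjusted p of 1 over all genes. In vehicle 0.42% of all genes had a peak in every Tbr2- and no Tbr2+ library and 0.101% the reverse. In TSA these shares were 1.35% and 0.00457%. For TSA against vehicle, genes with a peak in every vehicle and no TSA library made up 1.06% in Tbr2+ and 0.0274% in Tbr2- libraries, and the reverse 0.00457% and 0.00914%. None of the 8 genes was in these classes apart from Bbc3 in the vehicle comparison.

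The Bbc3 difference came from a short peak. The outermost RefSeq start of Bbc3 lies 1185, 1863 and 2033 bases before the 3 starts of the promoter table. Within 1 kb of each of those 3 starts every library of every group had a peak, and all 15 libraries had a peak beginning between 863 and 1243 bases inside the outermost start. The peak that made the difference lay before that, from between 694 and 850 bases to between 993 and 1088 bases inside the outermost start in the Tbr2- vehicle libraries, with a −log10 q of 1.48 to 4.82. Weak 3′ end peaks, with a −log10 q of 1.84 to 3.45, were also called at Bbc3 in 2 of 4 Tbr2- vehicle and 1 of 4 Tbr2- TSA libraries. With peaks of −log10 q of 5 or more 0 of 3 Tbr2+ and 0 of 4 Tbr2- vehicle libraries had a Bbc3 end peak, while 1 of 4 Tbr2+ TSA and 4 of 4 Tbr2- TSA libraries kept it. With a window of 100 bp no library of any group had an end peak, and with a window of 5 kb all 15 did.

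How far the mark extended differed at Plk2. In each library the peaks around the Plk2 start were added up, a measure chosen after the peaks had been seen. They covered 1698, 1292 and 1307 bp in Tbr2+ vehicle and 2382, 2282, 2290 and 2361 bp in Tbr2- vehicle libraries. In TSA they covered 1131, 1496, 1134 and 1238 bp in Tbr2+ and 2338, 2328, 2281 and 2369 bp in Tbr2- libraries. The longest Tbr2+ value of the 7 libraries lay well under the shortest Tbr2- value of the 8. The share of all genes separated over all 15 libraries was not computed. The difference was on the side of the gene body: in Tbr2- libraries the peak over the start ran to between 1615 and 1685 bases after the start, while in Tbr2+ libraries the peaks around the start ended between 611 and 1104 bases after it. On the upstream side the peaks began between positions -669 and -477 in Tbr2+ and between -724 and -599 in Tbr2- libraries. The CRE printed above lies inside these peaks in 14 libraries, and in Tbr2+ vehicle library 3 a gap between 2 peaks runs from position -76 to 7.

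**Figure D4:**
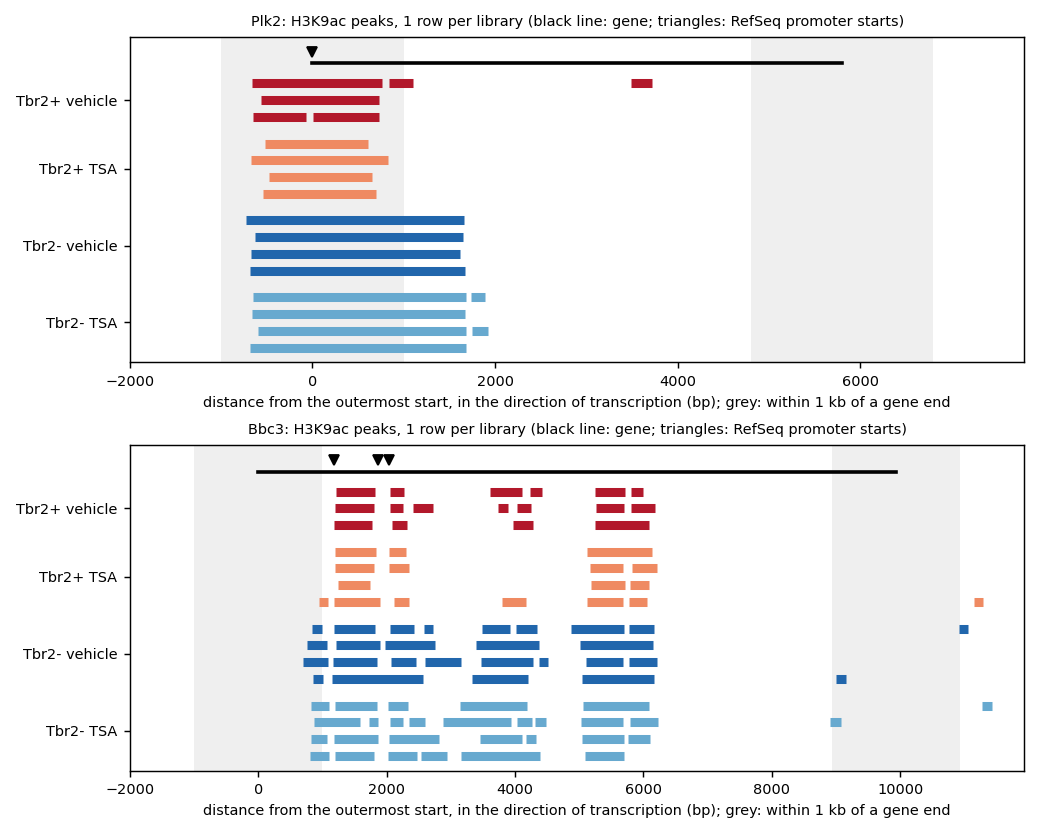
Bars are H3K9ac peaks in each of the 15 libraries, a row each and coloured by group, over Plk2 (top) and Bbc3 (bottom), against the distance from the outermost start in the direction of transcription in bp, with the gene as a black line, promoter starts as triangles and the 1 kb end windows in grey. The peaks around the Plk2 start end by 1104 bp in all Tbr2+ libraries, of which Tbr2+ vehicle library 1 has a further peak at 3485 to 3719 bp, and run to at least 1615 bp in all Tbr2- libraries, and at Bbc3 a bar reaching into the left window is present in all 8 Tbr2- libraries and in 1 Tbr2+ library.

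The same length was fitted with limma on the log2 scale over the 11909 genes with an end peak in every library, of which 7 are of the 8 genes described here. Plk2 was shorter in Tbr2+ libraries by 0.71 ± 0.11 in vehicle (log2 ratio -0.71, adjusted p = 0.00118, limma) and by 0.91 ± 0.10 in TSA (-0.91, adjusted p = 1.3e-05). Over all these genes 4.19% were called shorter and 0.924% longer in vehicle, and 36.3% shorter and 0.722% longer in TSA, where the median over all genes was itself -0.26 (-0.06 in vehicle). Without overlap between the populations, 16.4% were shorter and 5.23% longer in Tbr2+ vehicle libraries. In TSA these shares were 29.5% and 0.579%. Plk2 passed in both comparisons when each library was centred on its own median, with only peaks of −log10 q of 5 or more, and without each library in turn (adjusted p at most 0.0105 and 0.00119).

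Trp53inp1 peaks covered 1802, 2032 and 1952 bp in Tbr2+ vehicle libraries and 1491, 1550, 1421 and 1426 bp in Tbr2- vehicle libraries. They did not overlap, where 5.23% of all genes were longer in Tbr2+ vehicle libraries without overlap. The log2 ratio of 0.39 ± 0.10 passed (adjusted p = 0.0361, limma). It did not pass without any 1 of those 7 libraries (0.0578 to 0.142) or with only peaks of −log10 q of 5 or more (0.0596). In TSA the 2 sets overlapped, at 1303 to 1653 bp and 1440 to 1803 bp (-0.15 ± 0.09, adjusted p = 0.204, limma). Ccng1 passed as shorter in Tbr2+ TSA libraries, 729 to 975 bp against 1024 to 1268 bp (-0.40 ± 0.14, adjusted p = 0.0349, limma), but not after centring (-0.10, adjusted p = 0.635) or without Tbr2+ TSA library 1, 2 or 4 or Tbr2- TSA library 1 or 3 (0.0526 to 0.0998). Trp53, Mdm2, Bax and Sesn2 did not pass in either comparison (adjusted p = 0.065 to 0.902, limma), although Trp53 passed as shorter in Tbr2+ TSA libraries without Tbr2- TSA library 2 (-0.55, adjusted p = 0.0253) and Sesn2 passed as longer in Tbr2+ TSA libraries after centring (0.42, adjusted p = 0.00232).

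TSA against vehicle was described by the same lengths without a test. In Tbr2+ libraries the peaks of 4 of the 7 genes, Trp53, Trp53inp1, Bax and Sesn2, were shorter in every TSA library than in any vehicle library and none was longer in every one, where 37% and 0.168% of all genes were. For Sesn2 this rested on weak 3′ end peaks in the vehicle libraries, with a −log10 q of 1.9 to 4.1. At the Sesn2 start alone the lengths overlapped, at 1219 to 1278 bp in vehicle and 1038 to 1322 bp in TSA libraries. Trp53 covered 2263, 2567 and 3968 bp in Tbr2+ vehicle and 1441, 1740, 1413 and 1704 bp in Tbr2+ TSA libraries. A peak reaching into the 1 kb window counted whole, and any other not at all. Of the 3968 bp, 1451 bp were an upstream peak that ended at -995. In the other Tbr2+ libraries that peak ended between -1052 and -1014 and was left out. The 3′ end gave 493 and 145 bp in Tbr2+ vehicle libraries 1 and 2. A peak beginning 1190 to 1268 bases after the start was left out in Tbr2+ vehicle library 1 and every Tbr2+ TSA library. Their part in the Trp53 shortening was not tested. In Tbr2- libraries the lengths of all 7 genes overlapped between vehicle and TSA, where 3.27% of all genes were shorter and 0.84% longer without overlap. The lower number of peaks and the shallower input of the Tbr2+ TSA group, given above, move with this shortening, and their part in it was not tested.

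**Figure D5:**
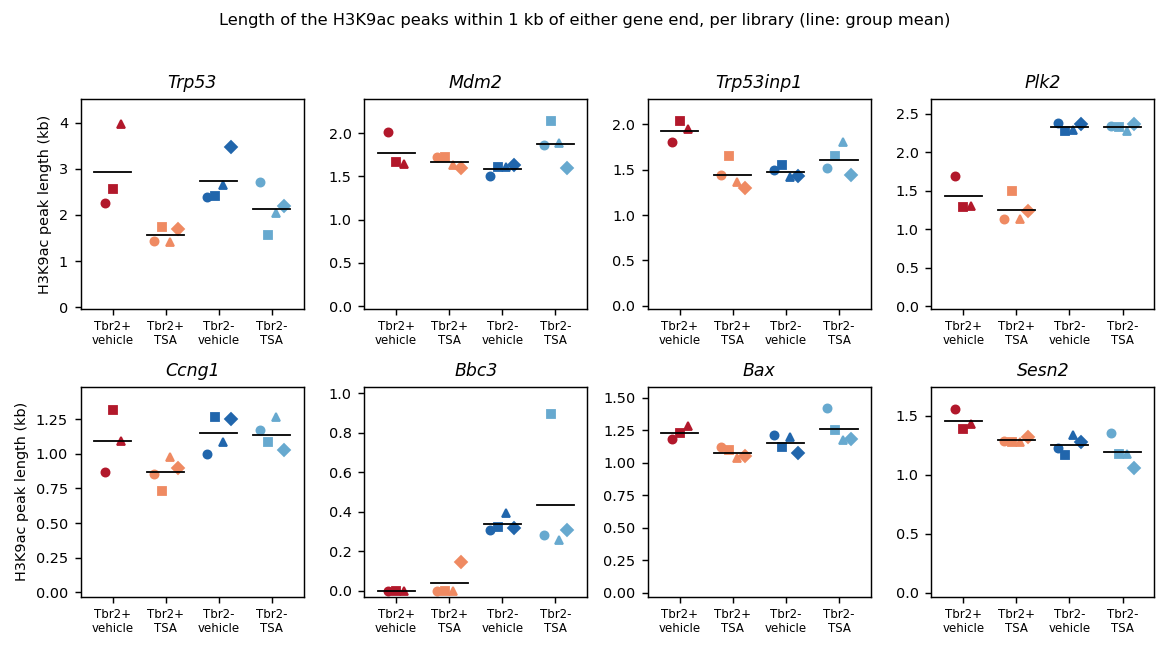
Each panel plots the summed length in kb of a gene's H3K9ac peaks within 1 kb of either gene end (y axis, from 0) in each ChIP library by group, with the shape giving the replicate number and the line the group mean. Plk2 separates all Tbr2+ libraries, at 1131 to 1698 bp, from all Tbr2- libraries, at 2281 to 2382 bp.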

How the data were processed

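RNA was measured as gene counts in 10 libraries and H3K9ac as peaks in 15, with 4 inputs not analysed here. The deposited RNA values are whole-number counts per Ensembl gene, and no aligner or counter is named in the sources used here. The authors' peak caller was MACS 2.1.0.20140616, run at a q threshold of 0.1 per the file headers, and the deposited files list for each peak its pileup (signal), −log10 p and q, and fold enrichment over the input. SAMtools, MACS2 and mm10 come from the submitters' processing notes. From the counts, edgeR 4.0.16 (R 4.3.3; TMM, filterByExpr, quasi-likelihood test, all 10 libraries in 1 fit) gave log2 fold changes, with SE taken as the absolute log2 fold change over the square root of F, and Benjamini-Hochberg adjusted p over 20078 genes. CPM uses TMM library sizes. DESeq2 1.42.0, other filters, the compared groups alone, replicate blocks and leaving out each library were alternatives. Deviations of same-numbered libraries correlated between populations within a treatment (r = 0.26 to 0.30 in the 3 vehicle pairs, 0.29 in TSA). They did not across treatments (-0.14 to -0.01), so numbers were taken to pair populations within treatment. With 2 TSA libraries a group, their deviations mirror each other. TSA thus gives a single value and shows the pairing less firmly than vehicle. Peak presence within 1 kb of either gene end was compared by Fisher's exact test over 21887 genes, and the covered length, added after seeing the data, with limma 3.58.1. The genes, lists and tests were chosen with earlier results of these data known. Besides the 8 genes and Cdkn1a, the text names the 3 called genes of each list with the smallest adjusted p in each comparison, and the 3 genes most like each of the 8. The edgeR and limma fits were tested on simulated data.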

Additional observations from a re-analysis of the deposited data

Results flagged for a closer look

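For the summed H3K9ac length within 1 kb of either end of each of the 8 genes, and for the number of protein-coding genes with an end peak, 27 groups of 4 ChIP libraries were examined for a library far from the other 3, where chance alone flags about 1 in 20 groups. There were 3 such libraries, all for the length at Bbc3. Among Tbr2- TSA libraries, library 2 covered 892 bp and the others 254 to 306 bp. Of the 892 bp, 724 bp were at the start, where 1 peak covered what the other 3 libraries had as a short and a longer peak, and 168 bp at the 3′ end. Among Tbr2- vehicle libraries, library 3 covered 395 bp and the others 309 to 322 bp, but the values of libraries 1 and 4 include 144 and 154 bp at the 3′ end. At the start alone the 4 libraries covered 165, 322, 395 and 163 bp, and library 3 did not stand apart. Among Tbr2+ TSA libraries, library 4 covered 147 bp, at the start, and the others 0 bp. With all the others at 0, any called peak is flagged, so the rate given above does not apply to this group.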

How the results depend on the processing

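With 2 or 3 RNA libraries a group, counts of called genes moved with the method. DESeq2 called 3009 genes between populations in TSA (edgeR 1871), 1015 for TSA in Tbr2+ (0), 2001 in Tbr2- (236), 3570 on average (2178) and 11 for the interaction (0). Without a low-count filter the TSA counts were 364 in Tbr2+ and 944 in Tbr2-, with the filter at 1 CPM in 3 libraries 4 and 479, and with only the compared groups 401 in Tbr2-. The replicate block gave 13 in Tbr2+ and 14 in Tbr2-. Neither block moved the counts between populations by over 1.5 times, and among the 8 genes only the Mdm2 call in TSA changed, under the block within treatment. Leaving out each library gave 683 to 1953 genes between populations in TSA, 0 to 39 for TSA in Tbr2+, 0 to 677 in Tbr2- and 245 to 2361 on average. For H3K9ac length it gave 296 to 453 genes in vehicle (609 with all) and 3320 to 4876 in TSA (4409), where centring gave 2132. Of 43 calls of named genes, 22 held in every alternative and 21 ended without some library. Every sign change below was of an effect that did not pass with all libraries. The Plk2 interaction (log2) turned to 0.0038 with the 1 CPM filter, 0.0746 with the replicate block and 0.0795 with the block within treatment. H3K9ac length turned to -0.026 for Bax in vehicle with −log10 q of 5 or more, and in TSA after centring to 0.14 for Mdm2, 0.142 for Trp53inp1 and 0.075 for Bax. Leaving out each library gave log2 ranges across 0 as follows. Between populations in TSA, Ccng1 ranged from -0.3384 to 0.0537. For TSA in Tbr2+, Plk2 ranged from -0.4197 to 0.2132, Ccng1 from -0.0312 to 0.3526, Bax from -1.0869 to 0.2979 and Sesn2 from -0.5893 to 0.1974. For TSA in Tbr2-, Mdm2 ranged from -0.1733 to 0.036 and Ccng1 from -0.1227 to 0.18. On average, Plk2 ranged from -0.2773 to 0.0391 and Bax from -0.2518 to 0.4387. For the interaction, Plk2 ranged from -0.2848 to 0.3481, Ccng1 from -0.0637 to 0.3171, Bbc3 from -0.229 to 0.0648 and Cdkn1a from -0.4342 to 0.0249. For H3K9ac length in vehicle, Trp53 ranged from -0.162 to 0.243 and Ccng1 from -0.232 to 0.069. The cause of these changes was not tested. With 3 or 4 libraries a group, Fisher's exact test of peak presence can give no p below 0.0286.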
